A study of Mus musculus with 30 samples.

Results

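The genes of prostaglandin synthesis, breakdown and sensing were followed through the mouse colon, in health, after carcinogen and colitis, and in tumors. They were 10 genes, Ptgs1, Ptgs2, Ptges, Ptgis, Ptgds, Hpgd, Ptger1, Ptger2, Ptger3 and Ptger4, each found as 1 row among the 31023 genes of the count table by its symbol. They were chosen by what they encode, with earlier results of these data known. All 10 passed the filter on low counts, Ptgds only through the tumor libraries. The study measured bulk RNA of the colon at day 56 in male C57BL/6 mice of 8 to 12 weeks, wild-type (WT) or Smox-/- (Smox below), to see how gene expression during carcinogenesis depends on spermine oxidase and on added spermidine. Smox encodes spermine oxidase, which turns spermine into spermidine and gives off hydrogen peroxide. Which part of the gene is deleted is not given in the labels.

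There were 10 groups of 3 libraries, and the study text gives 3 mice to a group. Untreated WT and untreated Smox mice received nothing, and WT and Smox mice with spermidine drank 14 mM spermidine for 56 days. For AOM-DSS, mice of both genotypes were injected with 12.5 mg/kg azoxymethane (AOM), a carcinogen of the colon, and then drank 4% dextran sulfate sodium (DSS), which injures the colon lining, in 3 cycles of 5 days from days 5, 26 and 47. Non-tumor colon after this course was taken from both genotypes, once without and once with spermidine. Tumors were taken from Smox mice without spermidine and from WT mice with it, both after AOM-DSS. The reverse tumor groups (WT without and Smox with spermidine) were not analysed here, so genotype and spermidine cannot be told apart between the tumor groups. The labels do not say whether a tumor and a non-tumor library came from the same mouse, and nothing in them pairs libraries.

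Prostaglandins are short-lived lipids made from arachidonic acid. Cyclooxygenases, encoded by Ptgs1 (constitutive in many cells) and Ptgs2 (COX-2, inducible), make the common precursor, and terminal synthases turn it into prostaglandin E2 (PGE2, by the product of Ptges), prostacyclin (by that of Ptgis) or prostaglandin D2 (by that of Ptgds). The product of Hpgd, 15-hydroxyprostaglandin dehydrogenase, inactivates PGE2, and the products of Ptger1 to Ptger4 (EP1 to EP4) are its receptors on the cell surface. In the colon this pathway is known for its part in repair of the epithelium after injury and in tumor growth, and Hpgd is known as a gene of the differentiated surface epithelium that is low in many colon tumors.

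The start regions of 4 of these genes are printed because they form the pairs of members with the highest correlation of levels over the 30 libraries, Hpgd with Ptger3 and Ptgs2 with Ptges. Each runs 5′ to 3′ on the gene's strand over 280 bases, from 250 bases before the RefSeq start to 30 bases after it (RefSeq, GRCm38.p6), and capitals mark the motifs found. RefSeq windows were at hand for 8 of the 10 genes, those other than Ptgis and Ptger1. The windows are chr1:150099781-150100060 (plus strand) for Ptgs2, chr2:30903268-30903547 (minus strand) for Ptges, chr8:56294302-56294581 (plus strand) for Hpgd and chr3:157566626-157566905 (plus strand) for Ptger3.
Ptgs2: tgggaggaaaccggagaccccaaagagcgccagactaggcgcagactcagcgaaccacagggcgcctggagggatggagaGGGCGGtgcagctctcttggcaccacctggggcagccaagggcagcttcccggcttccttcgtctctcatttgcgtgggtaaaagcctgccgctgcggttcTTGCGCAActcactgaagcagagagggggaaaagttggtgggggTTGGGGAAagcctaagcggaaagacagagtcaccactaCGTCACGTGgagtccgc
Ptges: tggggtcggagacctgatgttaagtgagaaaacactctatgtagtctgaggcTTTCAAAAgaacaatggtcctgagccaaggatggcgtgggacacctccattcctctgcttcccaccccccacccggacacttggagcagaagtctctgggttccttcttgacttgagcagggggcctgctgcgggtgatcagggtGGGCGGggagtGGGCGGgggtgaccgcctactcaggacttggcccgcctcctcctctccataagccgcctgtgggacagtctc
Hpgd: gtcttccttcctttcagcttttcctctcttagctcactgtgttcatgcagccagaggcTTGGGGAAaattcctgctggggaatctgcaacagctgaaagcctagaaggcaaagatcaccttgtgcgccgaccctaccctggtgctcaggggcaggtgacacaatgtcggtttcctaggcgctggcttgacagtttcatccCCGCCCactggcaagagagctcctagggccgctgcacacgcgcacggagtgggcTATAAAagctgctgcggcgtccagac
Ptger3: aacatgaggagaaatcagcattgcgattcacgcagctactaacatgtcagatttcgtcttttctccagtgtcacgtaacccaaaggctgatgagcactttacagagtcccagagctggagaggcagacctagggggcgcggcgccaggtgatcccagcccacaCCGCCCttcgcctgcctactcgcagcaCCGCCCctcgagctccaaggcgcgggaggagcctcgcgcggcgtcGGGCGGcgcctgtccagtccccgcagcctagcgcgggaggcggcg

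Motifs were searched on both strands, with positions counted from the RefSeq start. The Ptgs2 window held a C/EBP motif (TTNNGNAA) at -69 to -62 and another at -25 to -18, a GC box (GGGCGG) at -170 to -165, and at 14 to 18 the core of the cAMP response element (TGACG, here as CGTCA on the minus strand), which overlaps an E-box (CACGTG) at 17 to 22. The Ptges window held a C/EBP motif at -198 to -191 on the minus strand and GC boxes at -53 to -48 and -42 to -37. Hpgd had a C/EBP motif at -192 to -185, a GC box at -50 to -45 on the minus strand and TATAAA at 5 to 10. The whole Hpgd window lies before the start of the gene in GENCODE vM21 (chr8:56294585), so by that start TATAAA is upstream. Ptger3 had GC boxes at -87 to -82, -60 to -55 and -15 to -10. So the windows of Ptgs2, Ptges and Hpgd shared the C/EBP motif and the GC box, and that of Ptger3 held GC boxes alone among the motifs searched. Of all 32851 RefSeq windows of this length, 39.25% held the C/EBP motif, 34.69% the GC box, 19.89% the cAMP core, 13.1% TATAAA and 6.79% the E-box. The full cAMP element TGACGTCA (1.74% of windows), AP-1 (TGANTCA, 7.46%) and TCF/LEF (CTTTGAA or CTTTGAT, 8.22%) were not matched in these 4 windows. A match describes these letters and is not evidence of binding.

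Library totals ran from 33060607 to 81011304 counts. Levels are CPM, a gene's counts scaled to the size of its library with TMM factors, and libraries are numbered within a group in order of deposit. Epcam, the defining marker of epithelium, was at 1545 to 2744 CPM in every library. Smox itself read 25.1 to 54.1 CPM in WT and 18.6 to 63.1 CPM in Smox non-tumor libraries and 123 to 169 CPM in WT against 44.0 to 68.7 CPM in Smox tumors, so transcripts of the gene were still counted in the Smox libraries. As the labels do not give the deleted part, this is no check of the genotype. Some libraries stood apart. Untreated Smox library 3 held 2734 CPM of squamous epithelium markers and library 2 of Smox mice with spermidine alone 753 CPM, above all tumors (at most 630 CPM). Library 1 of Smox mice with spermidine alone held 1596 CPM of skeletal muscle markers. Untreated WT library 3 held 9211 CPM of skeletal muscle markers and 11.8 CPM of distal hindgut position genes (Hox genes of the distal gut), against 673 and 737 CPM in the other untreated WT libraries. Library 1 of non-tumor Smox colon under AOM-DSS plus spermidine held 1217 CPM of Wnt target genes, within reach of the tumors (288 to 3993 CPM), where the other non-tumor libraries had 54.9 to 343 CPM. Library 3 of the Smox tumors had the lowest Wnt target sum of the tumors (288 CPM) and the highest smooth muscle sum (1068 CPM, against 29.5 to 127 CPM in the other tumors).

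**Figure D1:**
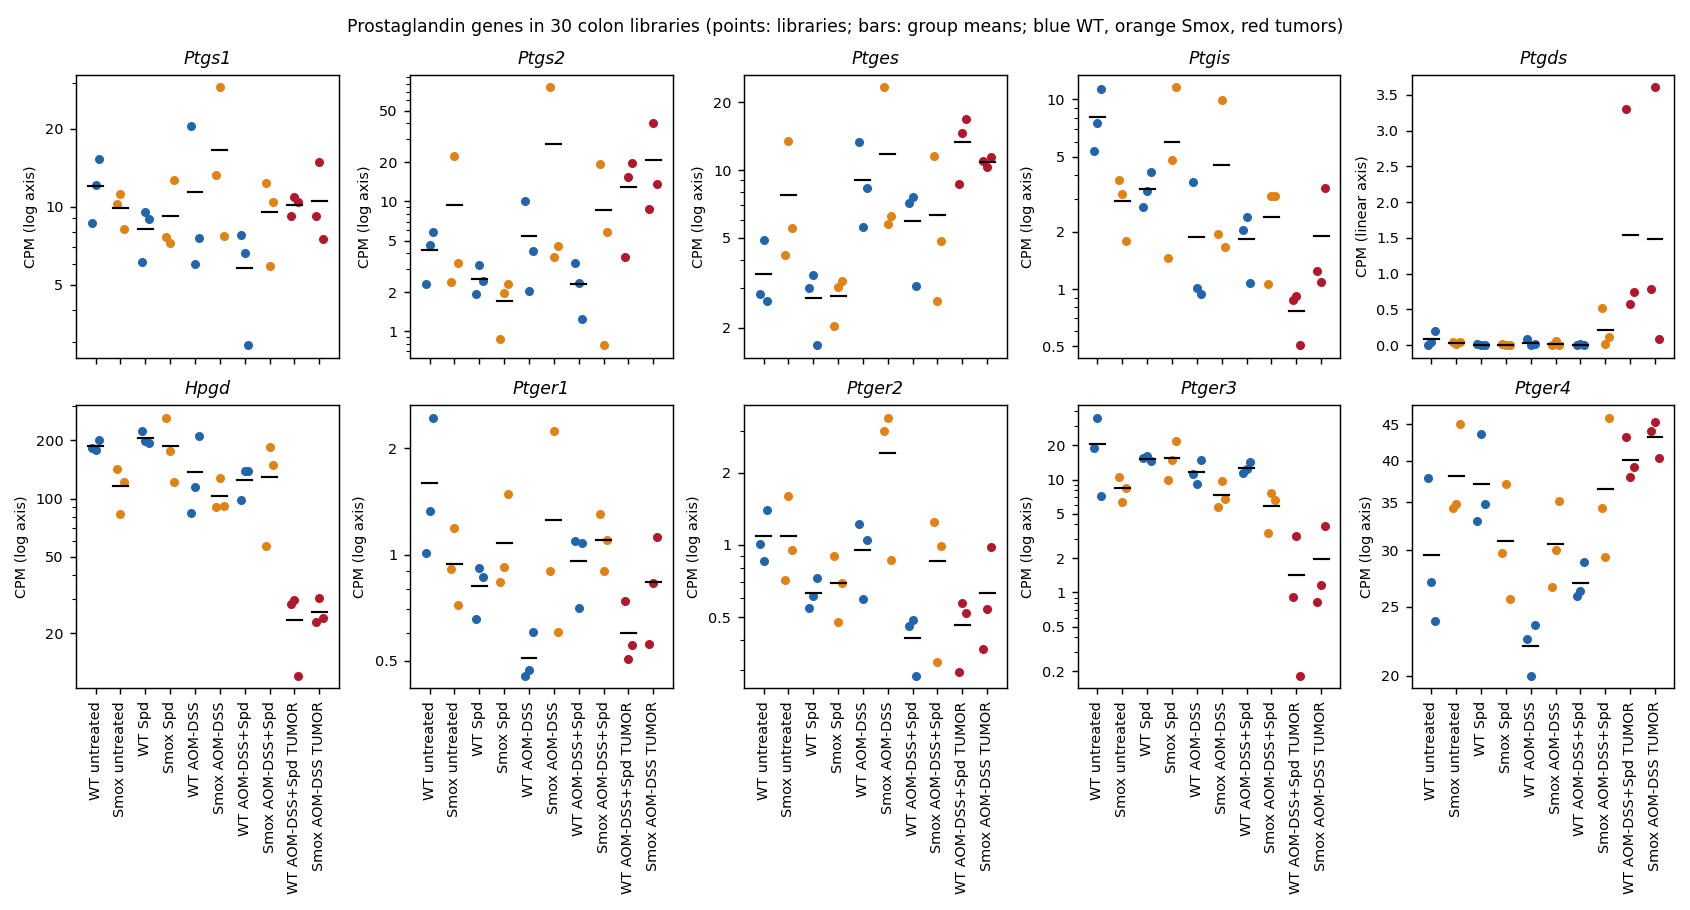
Level of each prostaglandin gene (CPM; log axes, except a linear axis for Ptgds) in each of 30 libraries, with groups along the x axis, points for libraries and bars for means of 3. Hpgd and Ptger3 sit lowest in the red tumor groups (12.1 to 30.4 CPM for Hpgd), Ptgds is near 0 outside tumors, and Ptgs2 and Ptges scatter within groups, up to 75.4 and 23.3 CPM in 1 non-tumor library.

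Divided by exon length, the median level over 30 libraries was highest for Hpgd, at 74.1 CPM per kb, followed by the receptor gene Ptger4 at 5.17 CPM per kb. Ptgs1 (2.37 CPM per kb), Ptger3 (1.66), Ptges (1.44), Ptgis (0.992) and Ptgs2 (0.819) came next. Ptger1 (0.165), Ptger2 (0.139) and Ptgds (0.0115) were lowest. Hpgd lay above Ptger4 without overlap of their ranges per kb over the 30 libraries, and all other neighbours in this order overlapped. The genes also differed in how much they varied: Ptger4 stayed within 20.03 to 45.9 CPM, a 2.29-fold span, whereas Ptgs2 ran from 0.785 to 75.4 CPM (96.1-fold) and Ptger3 from 0.184 to 35.1 CPM (191-fold). Ptger1 (26 to 130 counts per library) and Ptger2 (9 to 196 counts) were thinly covered. Ptger2 lies within the span of the antisense gene Gm17173, and Ptger4 overlaps Ttc33 on the opposite strand over 11676 bases. The library kit keeps strand, but the sources used here do not say whether counting used it, so the levels of these receptor genes are uncertain to that extent.

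In both comparisons of tumors with non-tumor colon the breakdown gene Hpgd and the receptor gene Ptger3 fell and the receptor gene Ptger4 rose. Of the other receptor genes Ptger2 fell in Smox tumors, and Ptger1 passed in neither comparison. Ptgds was far higher in tumors, but it entered the test through the tumor libraries alone and had to differ, so it is left out of the counts that follow. Of the other 9 genes, 1 rose and 3 fell in Smox tumors against Smox non-tumor colon after AOM-DSS, where 24.6% of all 19558 genes tested passed, 11.4% higher and 13.2% lower (edgeR quasi-likelihood test, Benjamini-Hochberg adjusted p under 0.05). In the same way 1 rose and 2 fell in WT tumors against WT non-tumor colon under AOM-DSS plus spermidine, where 34.4% of all genes passed, 16.9% higher and 17.5% lower. The mean of both comparisons called 4 of 9 genes against 47.3% of all genes, so the count of changed members was near that of the transcriptome. The median log2 change of the 9 genes in this mean was -0.63 (-0.28 with Ptgds), against 0.0047 over all genes tested. Bulk RNA cannot tell fewer cells of a type from less RNA per cell.

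Hpgd was the clearest of the changes. In Smox mice it stood at 89.9, 127 and 91.01 CPM in the non-tumor libraries after AOM-DSS and at 22.8, 30.4 and 24.0 CPM in the tumors. In WT mice on spermidine it stood at 97.9, 139 and 139 CPM in non-tumor colon and at 28.6, 29.7 and 12.1 CPM in the tumors. All 6 tumors lay below all 24 non-tumor libraries of the series, whose lowest value was 57.1 CPM, in the library with a high Wnt target sum. Hpgd fell 3.99-fold in Smox tumors (log2 change -1.996, SE 0.39, adjusted p = 0.00441, edgeR quasi-likelihood test) and 5.34-fold in WT tumors (-2.42, SE 0.40, adjusted p = 0.000347). The difference between the 2 falls was 0.42 on the log2 scale (SE 0.53, adjusted p = 0.78, edgeR interaction test).

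Ptger3, whose product EP3 is the receptor that lowers cAMP in many cells, was also far lower in tumors. It stood at 11.3, 12.3 and 14.2 CPM in WT non-tumor colon under AOM-DSS plus spermidine and at 0.921, 3.16 and 0.184 CPM in the tumors of that group. It fell by 3.15 on the log2 scale there (SE 0.70, edgeR adjusted p = 0.00211). In Smox mice the non-tumor libraries read 5.66, 9.68 and 6.66 CPM and the tumors 0.821, 1.15 and 3.91 CPM, and Ptger3 fell by 1.90 (SE 0.67, edgeR adjusted p = 0.0414). The groups did not overlap in either comparison. The highest tumor value was that of Smox tumor library 3, the tumor with the most smooth muscle RNA, and only the non-tumor library with a high Wnt target sum, at 3.38 CPM, came below it.

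Ptger4, whose product EP4 raises cAMP on PGE2, moved the other way by a small step. It stood at 26.6, 30.05 and 35.2 CPM in Smox non-tumor colon and 44.0, 45.3 and 40.3 CPM in Smox tumors. In WT mice with spermidine it stood at 25.9, 26.3 and 28.8 CPM in non-tumor colon and 43.1, 38.0 and 39.2 CPM in the tumors. Tumor and non-tumor libraries did not overlap within either comparison, but the 24 non-tumor libraries reached 45.9 CPM. Ptger4 rose 1.41-fold in Smox tumors (log2 change 0.50, SE 0.18, edgeR adjusted p = 0.0442) and 1.49-fold in WT tumors (0.57, SE 0.18, adjusted p = 0.0171).

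The mix of PGE2 receptor transcripts differed between tumors and the rest. Per length, Ptger4 made up 84.9 to 96.2% of the summed receptor level in the 6 tumors (median 94.3%) and 38.2 to 82.8% in the 24 non-tumor libraries (median 64.6%). These ranges did not overlap. The share of Ptger3 was 0.529 to 9.61% in tumors and 9.52 to 58.0% elsewhere, with 1 tumor above the lowest non-tumor library. Among the 2 cyclooxygenase genes, Ptgs2 made up 25.6 to 69.6% in tumors and 8.80 to 82.9% in non-tumor colon, and here the ranges overlapped widely.

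**Figure D2:**
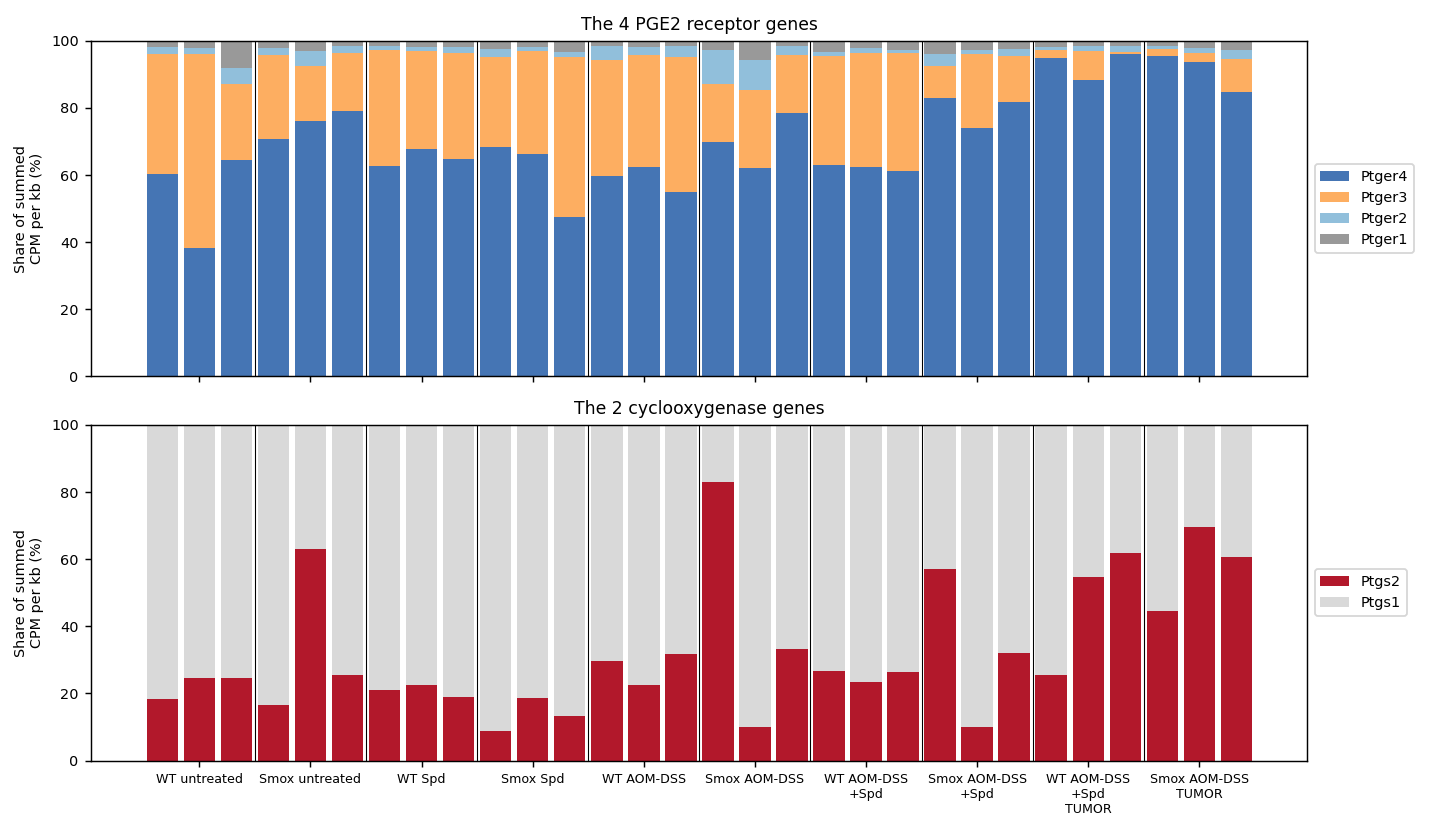
Share of each of the 4 PGE2 receptor genes (top) and of the 2 cyclooxygenase genes (bottom) in their summed CPM per kb (y axis, %), with 1 bar for each library and 3 bars for each group along the x axis. Ptger4 fills 84.9 to 96.2% of the receptor bars in the tumors and at most 82.8% elsewhere, whereas the Ptgs2 share is high in most tumors and in 3 non-tumor libraries.

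Ptgds, which encodes the lipocalin-type prostaglandin D synthase, was near 0 outside tumors. In WT mice with spermidine it had 1 count in all 3 non-tumor libraries together. It stood at 3.31, 0.573 and 0.737 CPM in the tumors, with 201 of their 284 counts in tumor library 1. In Smox mice it had 3 counts in non-tumor colon. There it stood at 0.777, 3.60 and 0.0835 CPM in the tumors, with 234 of their 292 counts in tumor library 2. Every tumor lay above the non-tumor libraries of its comparison, but Smox tumor library 3 was within the range of non-tumor libraries elsewhere, which reached 0.513 CPM in the library with a high Wnt target sum. Its cutoff in the filter on low counts was 0.17 CPM, which 5 of 6 tumors and 1 of 24 other libraries exceeded, so its difference is given with no test. Its level even in tumors was low.

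Ptgs2 and Ptges, the inducible cyclooxygenase and its PGE2 synthase, were higher in WT tumors without passing the test in the fit over 30 libraries. In Smox mice they did not separate tumors from the rest. In WT mice with spermidine Ptgs2 stood at 3.33, 2.38 and 1.24 CPM in non-tumor colon and 3.73, 15.5 and 19.8 CPM in tumors (log2 change 2.48, SE 1.12, edgeR adjusted p = 0.0883). Ptges stood at 7.17, 7.59 and 3.05 CPM and then 8.63, 14.5 and 16.9 CPM (1.17, SE 0.56, adjusted p = 0.114). Neither gene's ranges overlapped there, and DESeq2 called Ptgs2 (adjusted p = 0.0364). With only the groups compared edgeR called both, Ptgs2 (2.48, adjusted p = 0.0194) and Ptges (1.17, adjusted p = 0.0469). In Smox mice Ptgs2 read 75.4, 3.77 and 4.51 CPM in non-tumor colon and 8.76, 40.2 and 13.5 CPM in tumors, and Ptges read 23.3, 5.79 and 6.23 CPM and then 10.97, 10.3 and 11.4 CPM. One non-tumor library therefore held the highest value of both genes in the series. Over both comparisons Ptgs2 differed by 1.03 (SE 0.75, adjusted p = 0.27) and Ptges by 0.53 (SE 0.39, adjusted p = 0.28). Without that library the differences were 2.42 (adjusted p = 0.0109) and 1.03 (adjusted p = 0.0316) in the edgeR test. That library also had the highest sum of neutrophil markers in the series (305 CPM), and their part in these values was not tested.

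Ratios of the breakdown gene to synthesis genes were lower in tumors, as Hpgd alone was. Hpgd by itself parted tumors (12.1 to 30.4 CPM) from non-tumor libraries (57.1 to 262 CPM). Neither Ptges nor Ptgs2 was called in the tumor comparisons by the edgeR fit over 30 libraries. As Hpgd alone already parted all tumors, the ratios cannot show whether the synthesis genes add to that separation. The ratio of Hpgd to Ptges, per length, was 1.68 to 7.73 in the 6 tumors and 9.02 to 300 in the 24 non-tumor libraries, without overlap. The ratio of Hpgd to Ptgs2 was 1.67 to 20.8 in tumors and 3.24 to 821 elsewhere, with overlap. These are ratios of transcripts and not of enzyme activity.

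The other synthesis and receptor genes changed less or rested on few libraries. Ptger2, whose product EP2 also raises cAMP, stood at 2.99, 3.39 and 0.862 CPM in Smox non-tumor colon and 0.367, 0.539 and 0.985 CPM in Smox tumors. It fell by 1.94 on the log2 scale (SE 0.52, edgeR adjusted p = 0.0137) although the groups overlapped. In WT mice on spermidine Ptger2 differed by 0.17 (SE 0.52, adjusted p = 0.83), and the difference between the comparisons was -2.10 (SE 0.73, adjusted p = 0.30, edgeR interaction test). Ptger2 differed by -0.89 on the log2 scale in the mean of both comparisons (SE 0.37, edgeR adjusted p = 0.0505), and DESeq2 called it (-0.91, adjusted p = 0.0325). Ptgis, the prostacyclin synthase gene, fell in the mean of both comparisons by 1.26 (SE 0.51, edgeR adjusted p = 0.0482). This call was kept in 8 of 19 alternatives. It was lost without Smox non-tumor library 2, the non-tumor library after AOM-DSS with the most smooth muscle RNA (-0.60, edgeR adjusted p = 0.318), and without Smox tumor library 1 or 2, WT non-tumor library 1 or 2 or any WT tumor library (-1.33 to -1.12, edgeR adjusted p from 0.0598 to 0.11). Ptgs1 differed by 0.08 (SE 0.33, adjusted p = 0.87) and Ptger1 by -0.63 (SE 0.30, adjusted p = 0.0858) in the same mean.

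Other tissue markers moved with the tumor label, and their part in the changes was not tested. In the mean of the tumor comparisons 8 of 8 colonocyte markers, 9 of 9 smooth muscle markers and 7 of 7 B and plasma cell markers fell, and 9 of 9 Wnt target genes rose. Of 8 goblet cell markers 7 fell, of 9 markers of enteric neurons and glia 8 fell, and of 9 squamous epithelium markers 7 rose. In the WT comparison, where Ptgs2 and Ptges were higher, 6 of 8 neutrophil, 7 of 9 mast cell and 3 of 9 macrophage markers rose, against 0 of 8, 1 of 9 and 0 of 9 in the Smox comparison. The summed neutrophil level was 130 to 172 CPM in WT tumors and 112 to 134 CPM in their non-tumor group, that of macrophages 92.1 to 110 CPM and 19.6 to 58.9 CPM, and that of mast cells 27.7 to 44.7 CPM and 38.8 to 50.3 CPM. Of the neutrophil markers, S100a8 stood at 16.2 to 32.3 CPM in these tumors and 0.0952 to 2.12 CPM in their non-tumor group. S100a9 stood at 17.8 to 35.8 CPM and 0.349 to 2.25 CPM, so other markers of the list made up most of the non-tumor sum. The colonocyte sum was 414 to 624 CPM in tumors and 2550 to 4006 CPM in their non-tumor groups, and the smooth muscle sum was 29.5 to 1068 CPM against 926 to 4477 CPM. Of the squamous epithelium markers, Sprr3 and Krtdap were at 0 in all libraries of the WT tumors, and none was in the Smox tumors. Position along the gut also differed in Smox mice: distal position genes summed to 487 to 581 CPM in tumors and 223 to 326 CPM in non-tumor colon. Hoxd13 of this list stood at 140 to 201 CPM in these tumors and 2.31 to 5.39 CPM in their non-tumor group. Among WT mice with spermidine the distal position genes summed to 558 to 628 CPM in tumors and 743 to 957 CPM in non-tumor colon. Hoxd13 stood there at 157 to 197 CPM and 182 to 213 CPM. With the position level as a covariate no call in Smox mice passed the edgeR test, while those of WT mice with spermidine did. The log2 changes in Smox mice then were -1.80 for Hpgd (edgeR adjusted p = 0.0535) and -2.90 for Ptger3 (edgeR adjusted p = 0.0561). They were -1.83 for Ptger2 (edgeR adjusted p = 0.103) and 0.41 for Ptger4 (edgeR adjusted p = 0.292). As position and the tumor label went together in Smox mice, their parts cannot be told apart.

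Single libraries mattered most in Smox mice. The Ptger3 call was lost without any of the non-tumor libraries or without tumor library 1 or 2 (log2 change -2.03 to -1.53, edgeR adjusted p from 0.056 to 0.182). The Ptger4 call was lost without non-tumor or tumor library 1 or 2 (0.44 to 0.49, adjusted p from 0.108 to 0.126) or with RLE size factors in place of TMM (0.47, adjusted p = 0.0555), and the Ptger2 call without non-tumor library 2 or tumor library 1 or 2 (-1.84 to -1.60, adjusted p from 0.06 to 0.0823). In WT mice with spermidine Ptger4 was lost without non-tumor library 2 (0.57, adjusted p = 0.0506) or tumor library 1 (0.51, adjusted p = 0.0669). In the mean of both comparisons Hpgd, Ptger3 and Ptger4 stayed called whichever of the 12 libraries was left out, Smox tumor library 3 included.

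Between Smox tumors and WT tumors with spermidine none of the 10 genes passed the edgeR test, none had an unadjusted p under 0.05, DESeq2 called none, and 0.0614% of all genes passed. The log2 differences ran from -0.29 for Ptges to 1.32 for Ptgis (SE 0.73). Ptgis stood at 1.09 to 3.41 CPM in Smox tumors and 0.507 to 0.916 CPM in WT tumors, the 1 gene of 10 whose ranges did not overlap. None of the 10 genes had a tumor effect that differed between the groups by the edgeR interaction test either, where 0.0102% of all genes passed and 2 of the 10 had an unadjusted p under 0.05 (DESeq2 called none). The SE of these differences ran from 0.18 for Ptger4 to 1.12 for Ptgds, so they do not show that the tumors were alike.

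In non-tumor colon after AOM-DSS the change that passed in the mean over both genotypes, with and without spermidine, was that of the PGE2 synthase gene. Ptges stood at 1.68 to 13.5 CPM (median 3.13) in the 12 libraries without AOM-DSS and at 2.62 to 23.3 CPM (median 6.70) in the 12 non-tumor libraries with it. The ranges overlapped. Ptges rose 2.12-fold in the mean of the 4 comparisons (log2 change 1.08, SE 0.28, edgeR adjusted p = 0.00984), and it was the 1 gene of 10 called, against 20.9% of all genes tested. The call was kept under all 31 alternatives, among them leaving out any of the 24 libraries, with log2 changes from 0.85 to 1.28, and it was 0.86 (edgeR adjusted p = 0.0416) without the untreated WT library rich in skeletal muscle RNA and the non-tumor library with a high Wnt target sum. Of 8 neutrophil markers 7 also rose in this mean, and their part in the change was not tested.

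Ptgs2, the partner of Ptges, was higher by a like amount but with a larger error (1.03, SE 0.53, adjusted p = 0.17). Hpgd stood at 82.7 to 262 CPM (median 180) without AOM-DSS and 57.1 to 212 CPM (median 121) with it, a difference of -0.46 (SE 0.19, adjusted p = 0.0810). Ptgis (-0.91, SE 0.36, adjusted p = 0.0725), Ptger3 (-0.67, SE 0.32, adjusted p = 0.14) and Ptger4 (-0.24, SE 0.09, adjusted p = 0.0585) also lay lower without passing the edgeR test. The log2 differences of Ptgs1, Ptger1, Ptger2 and Ptgds in this mean had edgeR adjusted p of at least 0.43.

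Within single pairs of groups there was 1 call. In WT mice Ptger1 stood at 1.01, 1.33 and 2.44 CPM untreated and at 0.454, 0.471 and 0.602 CPM after AOM-DSS. The groups did not overlap, and the gene fell 3.12-fold (log2 change -1.64, SE 0.43, edgeR adjusted p = 0.0309), 1 of 10 genes against 6.44% of all genes. The smooth muscle sum was 5420 to 8404 CPM in these untreated libraries and 361 to 2674 CPM after AOM-DSS, and its part was not tested. Without the untreated library that held skeletal muscle RNA the call was lost (-1.14, edgeR adjusted p = 0.233), as it was without any one library of the AOM-DSS group (-1.79 to -1.54, adjusted p from 0.0558 to 0.148). In Smox mice Ptger1 read 0.912, 1.19 and 0.721 CPM untreated and 0.901, 2.25 and 0.604 CPM after AOM-DSS. The difference between the genotypes in the AOM-DSS effect was 2.06 (SE 0.60, adjusted p = 0.0805, edgeR interaction test; DESeq2 adjusted p = 0.0184). No gene of the whole table (0%) passed that edgeR interaction test.

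The other 3 comparisons of AOM-DSS called none of the 10 genes by edgeR, with 1, 1 and 4 genes at an unadjusted p under 0.05 (Smox; WT with spermidine; Smox with spermidine) and none called by DESeq2. Of all genes 0.0767%, 1.91% and 0.0205% passed there.

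The Smox genotype called none of the 10 genes in any comparison of non-tumor colon. Between untreated mice 5.95% of all genes passed and no member had an unadjusted p under 0.05 in the edgeR test. Ptgs2 stood at 2.30, 4.63 and 5.83 CPM in untreated WT and at 2.38, 22.5 and 3.35 CPM in untreated Smox colon, and Hpgd at 182, 177 and 201 CPM and at 142, 82.7 and 122 CPM. The ranges of Hpgd did not overlap between the untreated groups, but the test did not pass. In the mean of the 4 comparisons 5.78% of all genes passed, none of the 10 did, and 4 had an unadjusted p under 0.05: Ptgs2 (log2 difference 1.21, SE 0.54, adjusted p = 0.19), Ptger2 (0.63, SE 0.26, adjusted p = 0.15), Ptger3 (-0.76, SE 0.32, adjusted p = 0.17) and Ptger4 (0.25, SE 0.09, adjusted p = 0.0921). DESeq2 called none either. High Ptgs2 in Smox non-tumor colon came from 3 of 12 libraries, at 22.5, 19.3 and 75.4 CPM, 1 each in the untreated, the AOM-DSS with spermidine and the AOM-DSS groups, while the other 9 lay between 0.785 and 5.82 CPM and the 12 WT libraries between 1.24 and 10.1 CPM. The same 3 libraries had the highest Ptges of the Smox non-tumor libraries, at 13.5, 11.5 and 23.3 CPM, and each had the lowest Hpgd of its group. Between genotypes after spermidine alone 0.0818% of all genes passed, after AOM-DSS 0.0665% and with both treatments 0.251%. No member passed in these, with 0, 4 and 2 at an unadjusted p under 0.05 and none called by DESeq2. Position along the gut differed between the genotypes after AOM-DSS. Distal position genes summed to 482 to 651 CPM in WT and 223 to 326 CPM in Smox non-tumor colon. With spermidine as well they summed to 743 to 957 CPM and 67.3 to 591 CPM. Without AOM-DSS the genotypes overlapped, but in untreated mice only through WT library 3 (11.8 CPM). The other untreated WT libraries read 673 and 737 CPM, against 515, 285 and 251 CPM in untreated Smox colon. The part of position in the genotype differences was not tested.

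Of the 10 genes, 4 lie on the chromosome of Smox, chromosome 2, and none of these was called between genotypes. By GENCODE vM21 on GRCm38 they are Ptgis (chr2:167191805-167240604), Ptgs1 (chr2:36230426-36252272), Ptges (chr2:30889471-30929863) and Ptgds (chr2:25466709-25470046), at 35.7, 95.2, 101 and 106 Mb from Smox. The others are Ptgs2 (chr1:150100031-150108227), Hpgd (chr8:56294585-56321043), Ptger1 (chr8:83666678-83672753), Ptger2 (chr14:44988195-45003820), Ptger3 (chr3:157566892-157645888) and Ptger4 (chr15:5206661-5244187). All 10 are protein-coding genes, and the RefSeq start of Ptges lies inside its longer GENCODE span.

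Spermidine in the drinking water called none of the 10 genes and, in the mean of its 4 comparisons in non-tumor colon, 0% of all genes by edgeR. Of the 10 genes 4 had an unadjusted p under 0.05, all lower with spermidine. Ptger2 differed most clearly (log2 difference -1.03, SE 0.26, unadjusted p = 0.000538, adjusted p = 0.15), and DESeq2 called it (adjusted p = 0.00946). It stood at 0.860 to 1.41 CPM in untreated WT and 0.547 to 0.732 CPM in WT mice with spermidine, which did not overlap, and at 0.593 to 1.22 CPM and 0.286 to 0.485 CPM in WT mice after AOM-DSS without and with it, again without overlap. In Smox mice the ranges overlapped in both settings. Ptgs2 (-1.53, SE 0.54, adjusted p = 0.26), Ptges (-0.83, SE 0.28, adjusted p = 0.24) and Ptgs1 (-0.60, SE 0.23, adjusted p = 0.28) were the others.

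Singly, the 4 comparisons called no member by edgeR or DESeq2, with 1 and 2 members at an unadjusted p under 0.05 in WT and Smox mice without AOM-DSS and 3 and 2 with it. Of all genes 0.00511% passed in WT mice without AOM-DSS and 0% in the other 3. The effect of spermidine did not differ between genotypes for any member by the edgeR interaction tests, with 2.91% of all genes passing without AOM-DSS and 0% with it (2 and 1 members at an unadjusted p under 0.05, none called by DESeq2).

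**Figure D3:**
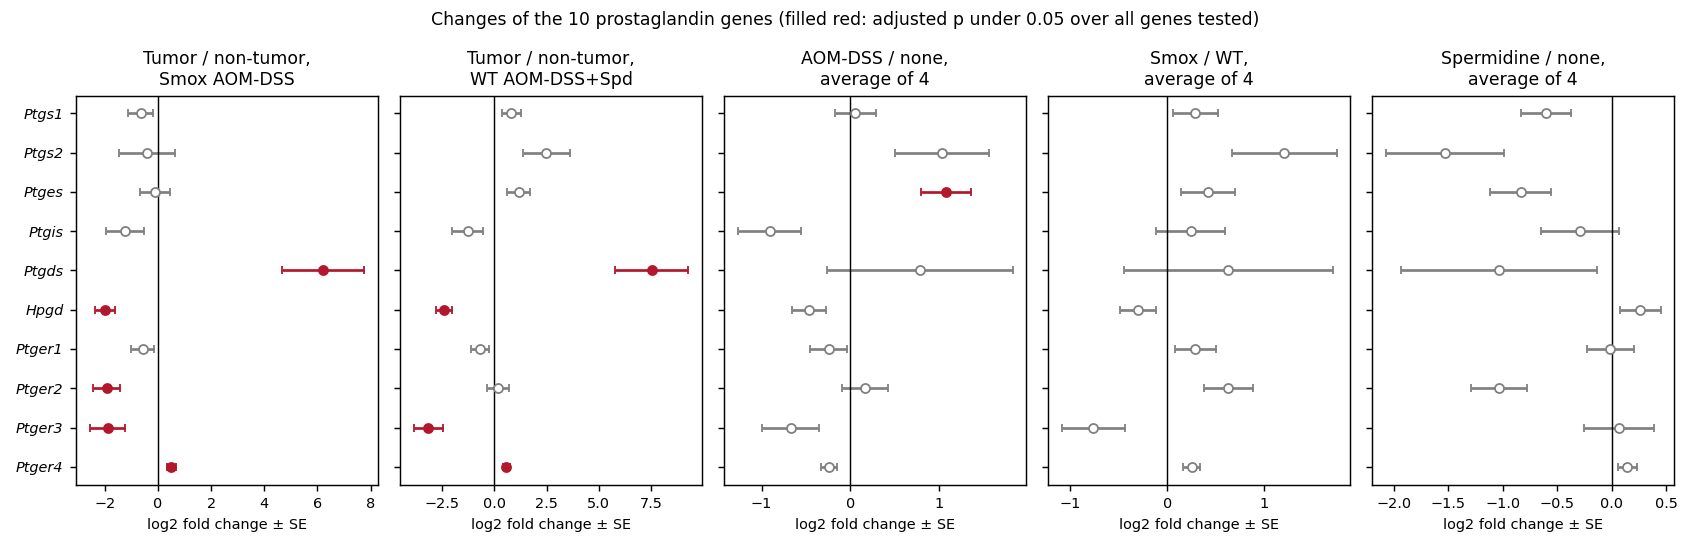
Log2 fold change ± SE of the 10 genes (x axis, a scale of its own in each panel) in 5 comparisons named above the panels, from 3 libraries against 3 in the tumor panels and 12 against 12 in the means of 4. Filled red points passed an adjusted p of 0.05 over all genes tested: Hpgd, Ptger3, Ptger4 and Ptgds (which had to differ, having passed the filter through tumors) in both tumor panels, Ptger2 in that of Smox mice and Ptges in the mean of AOM-DSS, with none for genotype or spermidine.

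Levels of several members varied together. The highest Pearson r of log2 CPM over the 24 non-tumor libraries was that of Ptgs2 with Ptges, at 0.82 (0.47 over the 6 tumors). Ptger2 went with both cyclooxygenase genes there, with r of 0.81 for Ptgs1 and 0.72 for Ptgs2, against -0.19 and 0.55 in tumors. Ptgis went with Ptger1 (0.63 and 0.77 in tumors) and, outside tumors, with Ptgs1 (0.59, and -0.51 in tumors). Hpgd ran against Ptges, with r of -0.77 in non-tumor libraries and -0.67 in tumors, and with Ptger3 at 0.56 and 0.75 (0.88 over all 30 libraries). The highest Ptgs2 thus met low Hpgd in non-tumor colon, but tumors had low Hpgd at any level of Ptgs2. These values describe libraries that share their tissue make-up, and no test was made of them.

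**Figure D4:**
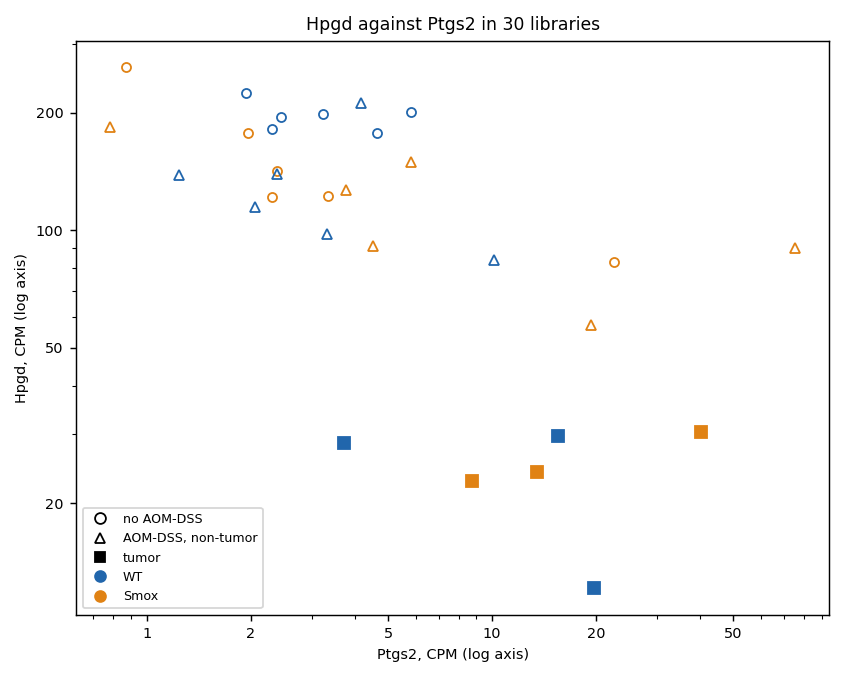
Hpgd against Ptgs2 (CPM, both axes log) in 30 libraries, with circles for colon without AOM-DSS, triangles for non-tumor colon after AOM-DSS, filled squares for tumors, blue for WT and orange for Smox. The tumors lie at 12.1 to 30.4 CPM of Hpgd across 3.73 to 40.2 CPM of Ptgs2, below all non-tumor libraries.

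The genes whose pattern was most like each member, among 15815 named candidates over 30 libraries, differed by member. For Ptgs2 they included Mmp13 (r 0.913) and Plau (0.907), and over the 24 non-tumor libraries their r was 0.904 and 0.891. Mmp13 encodes a collagenase and Plau an enzyme of plasminogen activation. For Ptges they were Pira11 (0.906), Retnlg (0.902) and Pf4 (0.899), of which Retnlg is a neutrophil gene and Pf4 a platelet gene. For Ptgis they were Pnck (0.931), Marveld1 (0.927) and Ppp1r12b (0.924), and for Ptgs1 Prickle2 (0.902), Tenm3 (0.890) and Ltbp3 (0.890).

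Hpgd was most like Selenbp1 (0.967), Slc25a34 (0.960) and Cyp2s1 (0.958), and Ptger3 most like Abat (0.963), Tmem117 (0.948) and Cryl1 (0.942). These likenesses rest in part on the tumors: over the 24 non-tumor libraries they were 0.856, 0.810 and 0.792 for Hpgd and 0.821, 0.726 and 0.676 for Ptger3. Ptger2 came closest to Pde1a (0.861), Ptger4 to Dtx2 (0.777) and Ptger1 to Thbs3 (0.768), with weaker matches than the other members. Ptgds came closest to Esyt3 (0.964), with 0.833 in non-tumor libraries where it was near 0.

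Other genes of eicosanoid supply, synthesis, transport and leukotriene formation were followed as a list of 38, of which 35 passed the filter. In the mean of both tumor comparisons 10 of 35 rose and 10 fell, 20 of 35 against 47.3% of all genes, with a median log2 change of -0.34 against 0.0047 over all genes. Among those that fell were a transporter and reductases of prostaglandins. Slco2a1, which encodes the transporter that takes prostaglandins into cells for breakdown, averaged 16.9 CPM in tumors and 66.1 CPM in their non-tumor groups (log2 change -1.96, SE 0.36, edgeR adjusted p = 0.000206). Cbr1 (-1.29, SE 0.19) and Cbr3 (-2.25, SE 0.38), carbonyl reductases that can act on prostaglandins, and Ptges2 (-0.49, SE 0.10), named as a further PGE synthase, fell too. Other genes of prostaglandin breakdown and transport went the other way. Ptgr1, a prostaglandin reductase that acts after the Hpgd product, averaged 70.6 CPM in tumors and 40.5 CPM in non-tumor colon (0.80, SE 0.19, edgeR adjusted p = 0.00185). Abcc4, which encodes an exporter of prostaglandins and was chosen after its values were seen, averaged 96.1 and 31.5 CPM (1.61, SE 0.39, edgeR adjusted p = 0.00216).

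Among those that rose were a phospholipase and a lipoxygenase gene. Pla2g12a, a secreted phospholipase, averaged 36.0 CPM in tumors and 7.63 CPM in non-tumor colon (2.22, SE 0.37, edgeR adjusted p = 8.84e-05). Alox12, an arachidonate lipoxygenase gene, stood at 21.3 to 140 CPM in Smox tumors and 112 to 153 CPM in WT tumors, and at no more than 2.48 CPM in their non-tumor groups (7.26, SE 1.41, adjusted p = 0.000321). Outside these groups 1 untreated Smox library read 23.7 CPM, 1 WT non-tumor library after AOM-DSS 24.6 CPM and the non-tumor library with a high Wnt target sum 63.0 CPM, all above the lowest tumor. In Smox tumors taken alone 5 of 35 rose and 6 fell, with 24.6% of all genes passing, among them Lta4h and Ptgr1 (up) and Ltc4s, Cbr1, Slco2a1 and Ptges2 (down), and in WT tumors 7 rose and 9 fell, with 34.4% of all genes passing.

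**Figure D5:**
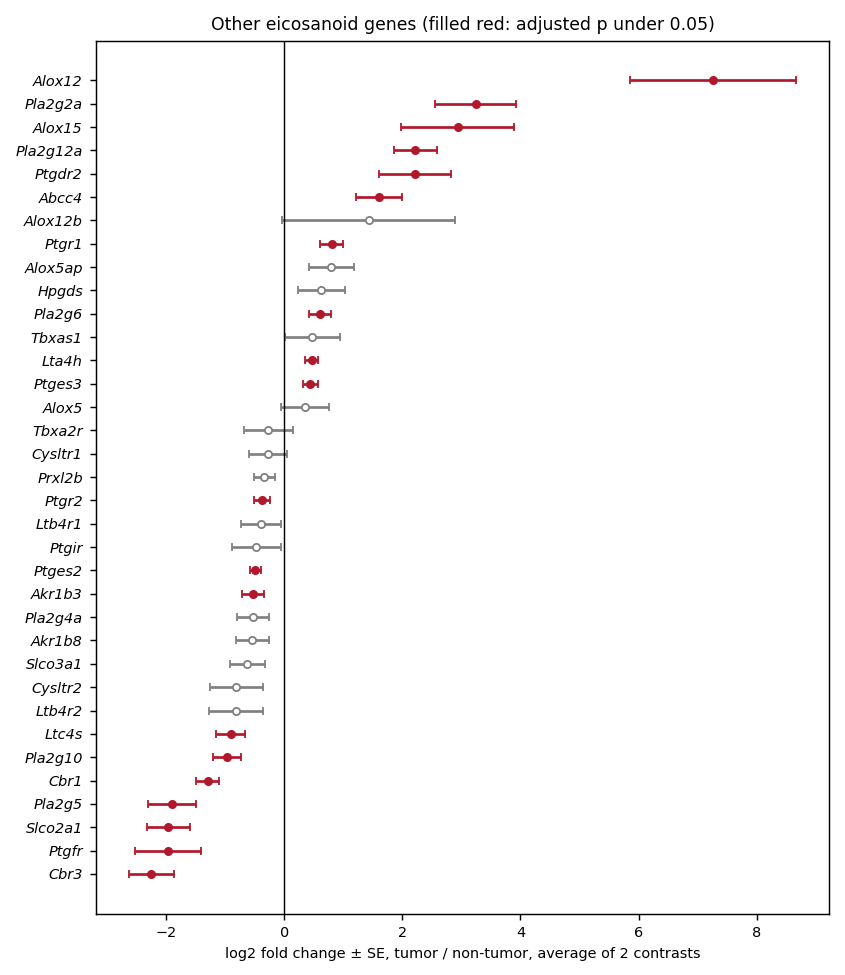
Log2 fold change ± SE of 35 other eicosanoid genes (y axis) in tumors against non-tumor colon, mean of the comparisons in Smox mice and in WT mice with spermidine (x axis), 6 libraries against 6. Filled red points passed an adjusted p of 0.05 over all genes: 10 rose, led by Alox12 at 7.26, and 10 fell, down to -2.25 for Cbr3, with Slco2a1 at -1.96.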

How the data were processed

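RNA from 30 mouse colon samples was sequenced. Per the labels, RNA was isolated with the RNeasy Mini kit and made into libraries with a strand-keeping kit (NEBNext Ultra II Directional), and per the submitters' processing notes fastp, Salmon, DESeq2 and GRCm38 were used, with versions and settings not given in the sources used here. The authors deposited estimated counts per gene, which are whole numbers in the table, for 31023 genes, 20430 of them with a symbol. GENCODE vM21 gave names for 10546 more, positions and exon lengths.

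Counts were analysed with edgeR 4.0.16 in R 4.3.3. TMM scaling, filterByExpr (minimum count 10, minimum total 15; 19558 genes kept) and 1 robust quasi-likelihood fit over 30 libraries with 1 mean per group were used, with Benjamini-Hochberg adjustment over all genes tested in each of 23 contrasts at 0.05. Library totals of 33060607 to 81011304 counts gave the fewest counts for Ptger1, Ptger2 and Ptgds, and spread between mice adds to counting error. Since libraries of a group are given as separate mice, p-values measure the spread between them. Likeness is the Pearson r of log2 CPM (prior count 2) with named genes other than predicted genes, and the 3 highest were named, except where a gene is not reported here. Of the other eicosanoid genes, those called were named, at most 6 per contrast by smallest p. In the mean of the tumor comparisons more were named, among them Ptgr1 and Abcc4 as genes that went the other way. Alternatives were DESeq2 1.42.0, RLE factors, no filter, 1 CPM in 3 libraries, only the groups compared, a gut position covariate, 2 libraries left out, and each library left out. The 2 left out together, called atypical below, were untreated WT library 3 and the non-tumor library with a high Wnt target sum. The procedure was tested on data simulated from its own fit for the Smox tumor comparison. That test takes the model as given, so it cannot check the model on libraries that stand apart. The members, lists, tests and alternatives were chosen with earlier results of these data known.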

Additional observations from a re-analysis of the deposited data

How the results depend on the processing

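The 16 calls of members were recomputed under 252 alternatives in all, of which 208 kept the call, 44 lost it and 0 reversed it, and 33 further calls were gained. Ptgds, whose calls followed from the filter, is counted here and below, and without it 169 of 211 alternatives of 13 calls kept the call and 42 lost it. In 14 of 23 contrasts no member was called under any alternative. The cause of the changes was not tested. The number of members called was 1 for AOM-DSS against untreated WT colon, and became 2 with DESeq2 and 0 without a filter, with only the groups compared or without both atypical libraries. It was 5 for Smox tumors, and became 0 with the position covariate, 3 without a filter and 1 with only the groups compared. Under the covariate the log2 changes were -1.80 for Hpgd, -2.90 for Ptger3, -1.83 for Ptger2 and 0.41 for Ptger4, against -1.996, -1.90, -1.94 and 0.50 without it. RLE factors lost Ptger4 (0.47, edgeR adjusted p = 0.0555). The number was 4 for WT tumors, and became 7 with only the groups compared. It was 1 for the mean AOM-DSS effect, and became 3 with DESeq2 and 2 with only the groups compared. A count of 0 became 1 with only the groups compared for AOM-DSS under spermidine in WT mice (Hpgd) and the mean Smox effect (Ptger3), and with DESeq2 for the mean spermidine effect (Ptger2) and the interaction of AOM-DSS and genotype (Ptger1). Leaving out each library in turn gave 0 to 1 members for AOM-DSS in WT mice, 1 to 5 for Smox tumors, 3 to 4 for WT tumors, 4 to 7 for the mean tumor effect, 1 to 2 for the mean AOM-DSS effect and 0 to 1 for the interaction of AOM-DSS and genotype. Over all genes, the count for Smox tumors was 4820 and became 433 with the position covariate. No paired analysis was possible because the replicate numbers follow the order of deposit and tie no libraries together. Counts were fewest for Ptgds (from 0 per library), Ptger2 (from 9) and Ptger1 (from 26).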

Other observations

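Outside tumors, a phospholipase gene was among the other eicosanoid genes that changed. Pla2g2a, which encodes a secreted phospholipase A2 that is broken in some mouse strains including C57BL/6, stood at 0.205 to 0.624 CPM in untreated WT colon and at 11.8 to 46.8 CPM in WT non-tumor colon after AOM-DSS, without overlap (log2 change 6.38, SE 1.17, edgeR adjusted p = 0.0122). Untreated Smox colon read 1.53 to 28.2 CPM, also above untreated WT (4.87, SE 1.11, edgeR adjusted p = 0.0215). In the mean of the 4 AOM-DSS comparisons 7 of 35 rose and 9 fell, with 20.9% of all genes passing. Slco2a1, the prostaglandin importer, fell there from a mean of 146 to 69.0 CPM (-1.06, SE 0.25, edgeR adjusted p = 0.00466), and Alox5, the 5-lipoxygenase of leukotriene synthesis, fell too (-1.20, SE 0.29).

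In the mean of the 4 Smox comparisons 5 of 35 rose and 1 fell, with 5.78% of all genes passing. The 5 included Alox5 (1.21, SE 0.29, edgeR adjusted p = 0.0171) and Alox5ap (1.33, SE 0.28, edgeR adjusted p = 0.00839), enzyme and helper protein of the first step to leukotrienes, Ltc4s (0.56, SE 0.17), which makes leukotriene C4, and Cysltr1 (0.88, SE 0.23), a receptor for its products. In the same mean 5 of 8 neutrophil, 4 of 9 macrophage, 3 of 9 mast cell, 2 of 8 T and NK cell and 2 of 8 tuft cell markers rose, and Alox5 is itself on the tuft cell list. The summed macrophage level was 17.4 to 50.4 CPM in untreated WT and 75.2 to 138 CPM in untreated Smox colon, and the neutrophil level 1.39 to 127 CPM and 94.8 to 148 CPM. Of the neutrophil markers, S100a8 stood at 0.0293 to 0.250 CPM in untreated WT and 2.28 to 37.2 CPM in untreated Smox colon. S100a9 stood at 0.0694 to 0.115 CPM and 1.07 to 37.0 CPM, so other markers of the list made up most of the sum in WT colon. In untreated mice Trpm5, a defining tuft cell marker, stood at 0.694 to 3.16 CPM in WT and 4.35 to 4.43 CPM in Smox colon. The summed tuft cell level overlapped there, at 15.12 to 63.07 CPM in WT and 29.95 to 42.8 CPM in Smox colon. So Trpm5 alone does not show more tuft cell RNA in untreated Smox colon. The part of these cell types in the values was not tested. Spermidine called 0 of the 35 genes in the mean of its comparisons by edgeR, with 6 at an unadjusted p under 0.05.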
